A study of Mus musculus with 13 samples.

Results

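The genes described here are Arntl, Arntl2 and Clock, which encode the activator side of the mammalian circadian clock. They were 3 of 19938 genes measured in whole back skin of male C57Bl6 mice at postnatal day 46, when hair follicles rest in telogen. The mice were kept in a cycle of 12 h light and 12 h dark with chow at will, and no genotype other than the strain and no treatment was given in the labels. ZT counts hours from lights on, and lights went off at ZT12. Skin was collected every 4 h over 48 h, and each of the 13 arrays held equal amounts of RNA from 3 mice, so the spread between single mice was not measured. There were 3 arrays at ZT2 and 2 each at ZT6, ZT10, ZT14, ZT18 and ZT22, with 6 in the dark (ZT14, ZT18 and ZT22) and 7 in the light (ZT2, ZT6 and ZT10). Each of the 3 genes was read by 1 probe set that the platform annotation assigned to that gene alone (10556463 for Arntl, 10542764 for Arntl2 and 10530733 for Clock).

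Arntl encodes BMAL1, a transcription factor that pairs with CLOCK, the product of Clock, and binds E-box sequences in DNA. The pair switches on the Per and Cry genes, whose proteins return to inhibit it, and the genes of the nuclear receptors REV-ERB alpha and beta (Nr1d1 and Nr1d2), which repress Arntl and compete there with the activating ROR receptors. BMAL2, the product of Arntl2, can also pair with CLOCK. In skin the clock runs in keratinocytes, fibroblasts and hair follicles.

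The sequence around the Arntl start is shown because the receptors of this loop act on it. It comes from RefSeq on GRCm38.p6 at chr7:113207261-113207560, plus strand, from 250 bases before to 50 bases after the transcription start, 5′ to 3′. Capitals mark each match to the 11 bases of the ROR element, which ROR and REV-ERB receptors bind (AAAGTAGGTTA, with any base allowed at the tenth), and each CCAAT box, which reads ATTGG here because all of them lie on the other strand. Set beside the Arntl sequence is a window of the partner gene with no match to either spelling. This window lies at the Clock start farthest upstream (chr5:76304743-76305042, minus strand). Its GC box (GGGCGG) is in capitals.
Arntl: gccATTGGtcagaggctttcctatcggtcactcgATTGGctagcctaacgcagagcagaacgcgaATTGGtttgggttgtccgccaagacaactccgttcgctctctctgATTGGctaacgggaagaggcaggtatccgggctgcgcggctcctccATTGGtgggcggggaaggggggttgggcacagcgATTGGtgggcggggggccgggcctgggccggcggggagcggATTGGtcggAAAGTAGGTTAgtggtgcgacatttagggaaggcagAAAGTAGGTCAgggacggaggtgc
Clock: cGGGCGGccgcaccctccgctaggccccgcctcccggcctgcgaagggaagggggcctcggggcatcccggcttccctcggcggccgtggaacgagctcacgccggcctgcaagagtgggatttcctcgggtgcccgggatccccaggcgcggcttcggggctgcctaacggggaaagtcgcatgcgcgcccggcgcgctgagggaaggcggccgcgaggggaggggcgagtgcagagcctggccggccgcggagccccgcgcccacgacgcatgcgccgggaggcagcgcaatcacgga

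The Arntl window held 2 ROR elements, AAAGTAGGTTA at bases 241 to 251 and AAAGTAGGTCA at bases 277 to 287, whose first bases were 36 bases apart. The element was found on either strand in 20 of 32851 RefSeq windows of 300 bases (0.0609%), and the Arntl window was the 1 that held 2 copies. The motif was spelled after the known Arntl pair, so part of this rarity follows from its spelling. The second copy also contains AGGTCA, the receptor core, which was present in 16.3% of windows. Another Clock window, not printed (chr5:76303453-76303752, minus strand), held this core too, at bases 132 to 137, and 1 CCAAT box at bases 292 to 296. The Arntl window held 7 CCAAT boxes, whereas 37.4% of windows held at least 1. A second Arntl window, 46 bases upstream and overlapping the first (chr7:113207215-113207514), held 8 CCAAT boxes and 1 ROR element. A count of 7 or more was reached by 4 of 32851 windows, these 2 among them. None of the 3 Clock windows nor the Arntl2 window (chr6:146805280-146805579, plus strand) held the ROR element in this spelling. A spelling found in 0.0609% of windows is absent from nearly all of them. Its absence here therefore says little about receptor sites, and looser spellings of the whole element were not searched. The capitals of the Clock sequence mark its 1 GC box, a motif present in 35.7% of windows. The printed Arntl window held 2 GC boxes, at bases 163 to 168 and 197 to 202, which were left in lower case. The E-box CACGTG (7.15% of windows), AACGTG (4.68%), the D-box TTANGTAA (2.32%) and the cyclic AMP element TGACGTCA (1.79%) had no match on either strand in any of the 6 windows of the 3 genes, which says only that these letters are not in these windows.

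Arntl swung widely over the day. Its intensity at hours 2 to 50, in steps of 4 h, was 1594, 646, 369, 774, 1663, 2065, 1661, 828, 409, 670, 1329, 1627 and 1630. The troughs fell on ZT10 on both days, the highest array of all lay at ZT22 on the first day, and from hour 26 on the arrays of ZT2 and ZT22 were the highest. By time of day Arntl averaged 1628 ± 33.3 at ZT2 (SD, n = 3), 737 ± 128 at ZT6, 389 ± 28.2 at ZT10, 722 ± 73.1 at ZT14, 1496 ± 236 at ZT18 and 1846 ± 310 at ZT22 (n = 2 each). In order of level, ZT22, ZT2 and ZT18 overlapped with their neighbours, as did ZT6 with ZT14. The ZT18 arrays did not overlap the ZT6 arrays, and the ZT14 arrays did not overlap the ZT10 arrays. The highest array was 5.59 times the lowest.

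Clock followed the same course with a smaller swing. At hours 2 to 50 its intensity was 2462, 2001, 1611, 1935, 2843, 2823, 2531, 2283, 1739, 1940, 2343, 2698 and 2546, and the highest array was 1.76 times the lowest. Clock averaged 2513 ± 44.9 at ZT2 (SD, n = 3), 2142 ± 199 at ZT6, 1675 ± 90.3 at ZT10, 1938 ± 3.51 at ZT14, 2593 ± 354 at ZT18 and 2761 ± 88.1 at ZT22 (n = 2 each). ZT22, ZT18 and ZT2 overlapped with their neighbours in level, and the steps down to ZT6, to ZT14 and to ZT10 did not overlap. The lowest arrays of Clock on both days were those in which Arntl was lowest.

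Arntl2 stayed within a narrow band. Its intensity at hours 2 to 50 was 1401, 1133, 1040, 986, 1117, 1253, 1186, 1099, 1093, 903, 1038, 1072 and 1094, and the highest array was 1.55 times the lowest. The averages were 1227 ± 158 at ZT2 (SD, n = 3), 1116 ± 24.4 at ZT6, 1066 ± 37.0 at ZT10, 944 ± 58.5 at ZT14, 1078 ± 55.3 at ZT18 and 1162 ± 128 at ZT22 (n = 2 each). All neighbours in order of level overlapped apart from ZT10 and ZT14. The lowest array of each day was the ZT14 one. The mean intensity of Arntl stood at percentile 75.9 of all genes, that of Arntl2 at 74.3 and that of Clock at 90.8. These percentiles describe probe set signal. The RNA amounts of different genes are not compared from them, since each probe set has its own response.

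**Figure D1:**
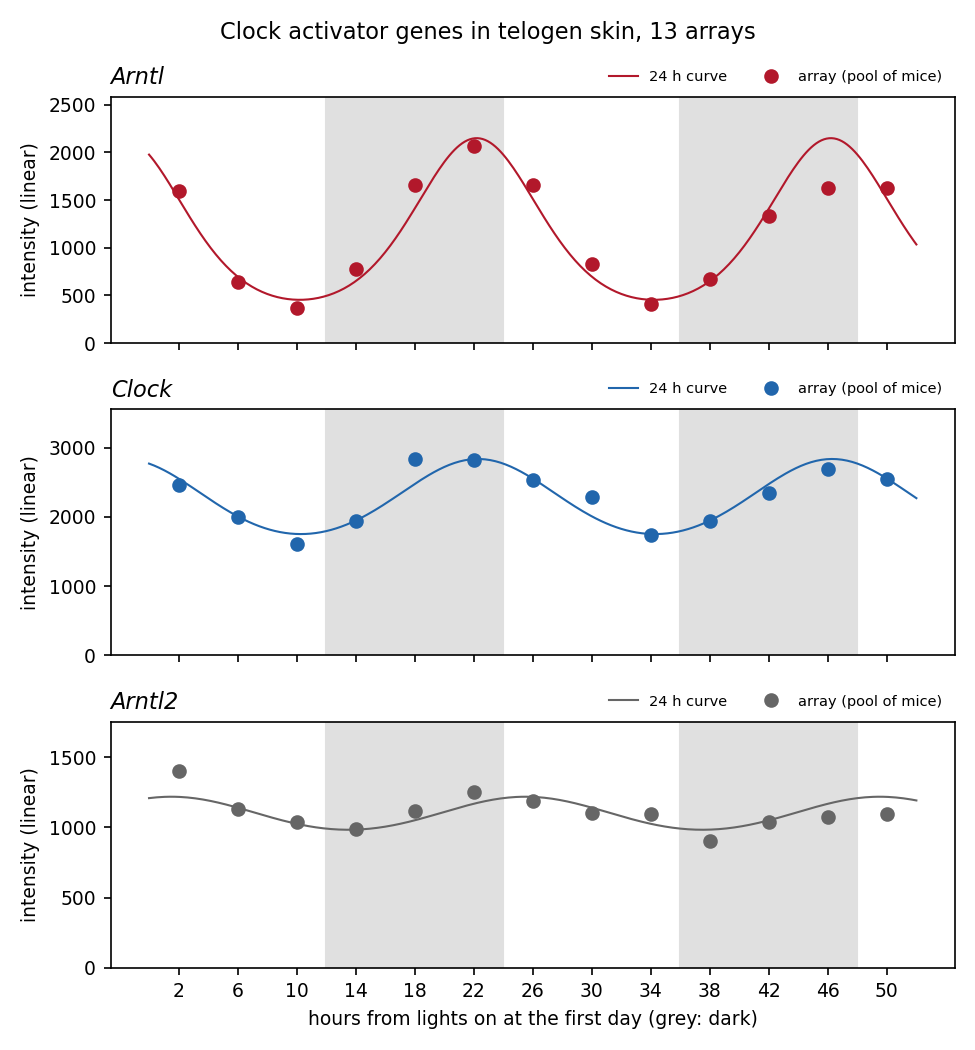
Linear intensity (y axis, from 0) of Arntl, Clock and Arntl2 against hours from lights on at the first day (x axis). Each point is 1 array of pooled mice, the line is the fitted 24 h curve and grey marks the dark. Arntl falls to 369 and 409 in the ZT10 arrays, Clock has its lowest arrays at the same hours with a shallower swing, and Arntl2 shows no comparable dip.

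The plot of intensities by hour carries the fitted 24 h curves, which were tested for every gene on log2(intensity + 16) with limma and Benjamini-Hochberg adjustment over 14953 genes. Arntl and Clock passed an adjusted p of 0.05 and Arntl2 did not, so that 2 of the 3 genes were called against 2.13% of all genes tested (318). The fitted peak-to-trough difference of Arntl was 2.20 ± 0.16 in log2 (SE), a 4.61-fold swing with its peak 22.2 ± 0.27 h after lights on (limma, adjusted p = 8.65e-05), the 12th largest fold among the genes tested. Clock had a difference of 0.69 ± 0.09 in log2, 1.61-fold, with its peak at 22.3 ± 0.47 h (limma, adjusted p = 0.00270). Arntl2 had a difference of 0.30 ± 0.09 in log2, 1.24-fold, with a fitted peak at 1.51 ± 1.18 h (limma, unadjusted p = 0.0132, adjusted p = 0.171). The curve took up 93.9% of the variance of Arntl, 88.0% of that of Clock and 56.5% of that of Arntl2, against 24.6% for the median gene. With time of day as 6 unordered groups in place of the curve, a test that called 0.294% of genes, Clock was not called (limma, adjusted p = 0.0662, against 0.00155 to 0.0174 under the other 21 alternatives). In RNA of whole skin, fewer cells of a type and less RNA per cell cannot be told apart.

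The 3 genes were then compared with each other by the 24 h curve of their log2 difference within each array, tested by 100000 permutations of the collection hours and adjusted over the 3 pairs. Each gene had 1 probe set, so a difference in probe response that alters the size of a swing was not tested. The ratio of Arntl to Clock swung by 1.51 ± 0.14 in log2 (SE), 2.86-fold, with its peak at 22.2 h (permutation adjusted p = 3e-05; the unadjusted p, 1e-05, is the smallest these permutations can give). The ratio of Arntl to Arntl2 swung by 2.02 ± 0.19 in log2, 4.05-fold (permutation adjusted p = 6e-05), and that of Clock to Arntl2 by 0.54 ± 0.12, 1.45-fold (permutation adjusted p = 0.0053). The peak-to-trough difference of Arntl was 1.51 log2 units larger than that of Clock (95% interval 1.21 to 1.82) and 1.90 larger than that of Arntl2 (1.47 to 2.33), and that of Clock 0.38 larger than that of Arntl2 (0.13 to 0.64). The peaks of Arntl and Clock were -0.09 ± 0.32 h apart (SE; 95% interval -0.79 to 0.62 h), so a lag of up to 0.79 h between them lies within the error. Arntl peaked -3.31 ± 1.16 h from Arntl2 (-5.88 to -0.73 h) and Clock -3.22 ± 1.20 h (-5.91 to -0.54 h), where a negative value means earlier. These differences rest on the fitted peak of Arntl2, whose own rhythm was not called.

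Across the 13 arrays Arntl and Clock had a Pearson r of 0.968 and a Spearman rho of 0.951 (permutation adjusted p = 3e-05 for each, over 3 pairs). These permutations shuffled arrays across times of day, so the p does not set aside the 24 h curves that both genes follow. Without the 2 arrays farthest from the median of Arntl, r was 0.935. It was 0.962 over the 6 arrays of the second day and 0.975 over the 6 of the first. After the 24 h curves were removed, the residuals of the same arrays had an r of 0.69, given as a description. Arntl and Arntl2 had an r of 0.501 and a rho of 0.527 (permutation adjusted p = 0.0902 and 0.0669), and Clock and Arntl2 an r of 0.491 and a rho of 0.533 (permutation adjusted p = 0.0902 and 0.0669). Neither relation passed the threshold.

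**Figure D2:**
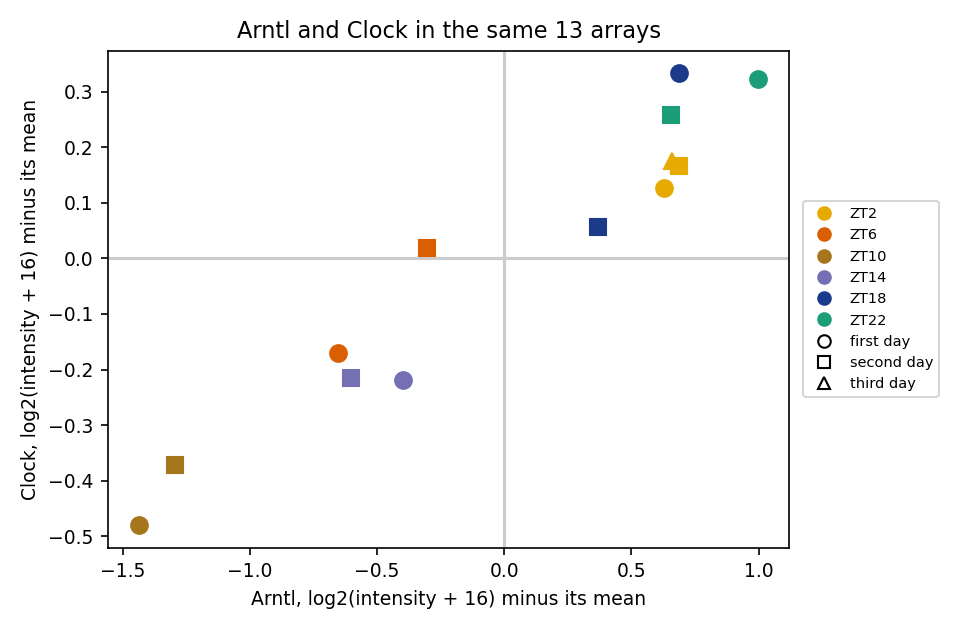
Clock (y axis) against Arntl (x axis) in the 13 arrays, each as log2(intensity + 16) minus its own mean. Colour gives the time of day and shape the day, with the hour 50 array as the triangle. The arrays line up from both ZT10 arrays at the lower left to the first ZT22 and first ZT18 arrays at the upper right (r = 0.968), over a wider range for Arntl than for Clock. The second ZT22 array lies among the ZT2 arrays for Arntl and above them for Clock. The second ZT18 array lies below the ZT2 arrays in both genes.

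In the scatter of Clock against Arntl, the points share their arrays and times of day. Likeness to each gene was ranked by Pearson r over the 13 arrays among the other 14952 genes. Clock ranked 1 for Arntl and Arntl ranked 1 for Clock, whereas Arntl2 ranked 1320 for Arntl and 1358 for Clock. After Clock, the genes most like Arntl were Fam124b (r = 0.950), Sdf2l1 (0.947), Ints2 (0.945) and Scd2 (0.935). The most opposite to Arntl were Per1 (r = -0.978), Ephx1 (-0.973), Ciart (-0.972), Slc6a6 (-0.959) and 9530091C08Rik (-0.956). Per1 encodes an inhibitor of the BMAL1 and CLOCK pair, and Ciart another repressor of it. Per1 also headed the genes opposite to Clock (r = -0.970), followed by Slc6a6 (-0.955), 9530091C08Rik (-0.949), Per3 (-0.946) and Apbb3 (-0.938). Scd2 was again among the genes most like Clock (r = 0.934), with Atp6v0a2 (0.949), Morc4 (0.935) and Has2 (0.931). The genes most like Arntl2 were Cep20 (r = 0.958), Serf1 (0.954), Dcps (0.953), Calm4 (0.950) and Atpif1 (0.947). None of the 5 genes most like Arntl2 or of the 5 most opposite to it (Ccnd3, C2cd2l, 1700088E04Rik, Krt6a and Lurap1) was called for a 24 h rhythm by limma, where 2.13% of all genes were.

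Between neighbouring times of day, each step was tested in a limma model of the 6 groups. At ZT6 Arntl was lower than at ZT2 by a log2 difference of -1.14 ± 0.14 (SE; limma, adjusted p = 0.0310), 1 of 5 genes called in that step (0.0334% of genes), with Dbp, Nfil3, Ciart and Per2. That call was lost without each array other than those of ZT18 and with the day as a replicate block (limma, adjusted p = 0.291), 12 of 21 alternative settings, over which the adjusted p ran from 0.0237 to 0.681. No other step of the 3 genes was called. Arntl differed by -0.88 ± 0.16 at ZT10 against ZT6 (limma, adjusted p = 0.506), by 0.86 at ZT14 against ZT10 (0.444) and by 1.03 ± 0.16 at ZT18 against ZT14 (0.0737), steps in which limma called 0% of genes although 736, 580 and 662 genes had an unadjusted p under 0.05. Clock differed by -0.23 ± 0.10 at ZT6 against ZT2, by -0.35 ± 0.11 at ZT10 against ZT6 and by 0.41 ± 0.11 at ZT18 against ZT14, with limma adjusted p of 0.991, 0.966 and 0.506. Unadjusted (limma), p was 0.000170, 0.000208 and 4.67e-05 for these uncalled Arntl steps and 0.0411, 0.00879 and 0.00332 for these Clock steps. Around the peak the steps were small for all 3 genes, at most 0.30 for ZT22 against ZT18 (0% of genes called, 623 at an unadjusted p under 0.05) and from -0.17 to 0.07 for ZT2 against ZT22 (0.00669% called). Leaving out 1 array moved the Arntl value for ZT22 against ZT18 between 0.13 and 0.47, and without the hour 22 array 59 genes were called in that step and 96 for ZT2 against ZT22, and without the hour 42 array 16 genes for ZT18 against ZT14.

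**Figure D3:**
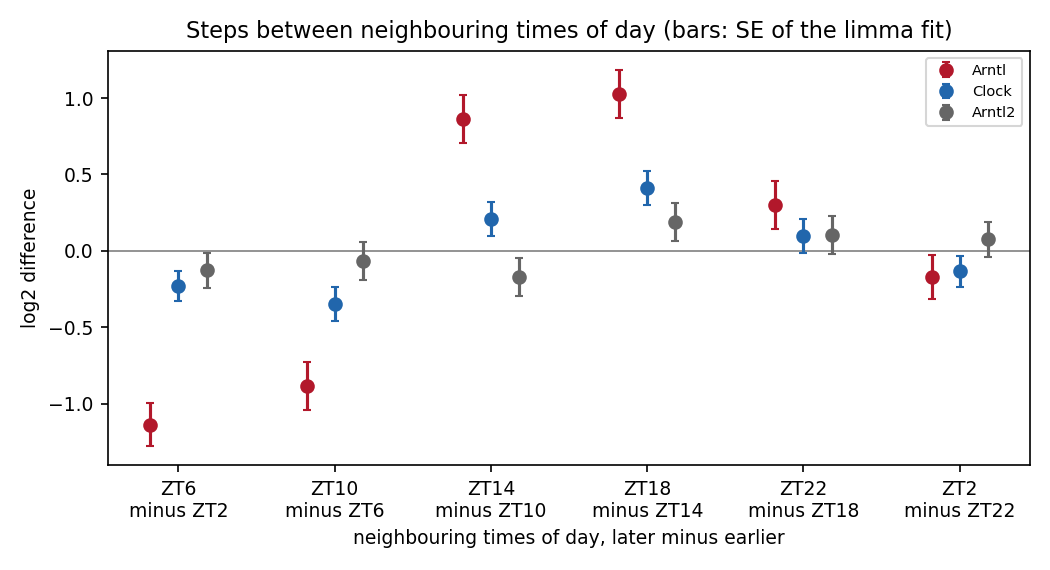
Log2 difference of the later minus the earlier time of day (y axis) for each pair of neighbouring times (x axis) in Arntl, Clock and Arntl2, with bars for the SE of the limma fit. Arntl has its 2 large steps down at ZT6 (-1.14) and ZT10 (-0.88) and its 2 large steps up at ZT14 (0.86) and ZT18 (1.03), Clock takes smaller steps in the same directions, and the Arntl2 steps stay between -0.17 and 0.19.

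As the plot of steps shows, the swing of Arntl was spread over ZT6 and ZT10 on the way down and over ZT14 and ZT18 on the way up. A division into dark and light cuts across this course, because dark and light each hold high and low arrays. Arntl intensity ranged from 670 to 2065 in the dark with a median of 1478, and from 369 to 1661 in the light with a median of 828. Clock ranged from 1935 to 2843 in the dark with a median of 2521, and from 1611 to 2546 in the light with a median of 2283. For Arntl2 the dark arrays ran from 903 to 1253 with a median of 1055, and the light arrays from 1040 to 1401 with a median of 1099. The dark and light arrays of all 3 genes overlapped. Dark minus light was 0.53 ± 0.39 in log2 for Arntl (SE; limma, adjusted p = 0.726), 0.17 ± 0.13 for Clock (0.739) and -0.11 ± 0.08 for Arntl2 (0.713), so that 0 of the 3 genes were called, none of them at an unadjusted p under 0.05, where limma called 0.0201% of all genes. Leaving out 1 array moved the difference between 0.33 (without hour 10) and 0.71 (without hour 38) for Arntl, between 0.10 (hour 10) and 0.23 (hour 14) for Clock and between -0.16 (hour 22) and -0.07 (hour 2) for Arntl2, and the count of 3 genes between 1 and 16 (without hour 22).

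The days were compared over hours 2 to 46 with time of day as a block. Arntl on the second day was 1.04 times its first-day level at ZT2, 1.28 times at ZT6, 1.11 times at ZT10, 0.866 times at ZT14, 0.799 times at ZT18 and 0.788 times at ZT22. On the second day it was thus higher at the 3 light times and lower at the 3 dark times, and the mean over the day differed by -0.05 ± 0.10 in log2 (SE; limma, adjusted p = 0.799). The fitted Arntl curve swung 3.96-fold on the second day with a peak at 22.7 ± 0.42 h, and 5.35-fold on the first with a peak at 21.7 ± 0.34 h. Clock swung 1.51-fold on the second day with a peak at 23.3 ± 0.71 h, and 1.77-fold on the first with a peak at 21.6 ± 0.51 h. Taken by day, the second-day curve was not called for Arntl (limma, adjusted p = 0.0624) or Clock (0.227), in a test that called 0.00669% of genes, and the first-day curve was called for both (0.0183 and 0.0378), in a test that called 0.863%. The difference between the days' curves was not called for Arntl, Clock or Arntl2 (limma, adjusted p = 0.416, 0.401 and 0.525), nor for any other gene (0%), although 1912 genes had an unadjusted p under 0.05. Arntl2 was lower on the second day at 5 of 6 times of day, by a mean of -0.11 ± 0.06 in log2 (limma, adjusted p = 0.604), and Clock had a mean difference that rounded to 0 with an SE of 0.07 (adjusted p = 0.9996). Limma called 0% of genes between the days, with 966 at an unadjusted p under 0.05. A 12 h component was likewise not called for the 3 genes or for any other (limma, 0%, with 812 genes at an unadjusted p under 0.05). It was largest among the 3 for Arntl, at 0.43 ± 0.12 in log2 (limma, unadjusted p = 0.0124, adjusted p = 0.864). Without the hour 10 array, 197 genes were called for it.

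The genes that the activators drive through E-boxes peaked at other hours than Arntl and Clock. Of 16 such genes, 15 were called for a 24 h rhythm by limma, against 2.13% of all genes tested, with a median fold of 3.62 over the 16 against 1.14 over all genes. The 16 were chosen with earlier results of these data known, so this share is a description and not a test. All 15 peaked between ZT6 and ZT18, as did 165 of the 318 genes called in all. Nr1d1 peaked at 7.54 h with an 8.52-fold swing and Nr1d2 at 8.97 h with a 6.94-fold swing. Dbp, which encodes an activator of D-box genes, swung 20.8-fold with its peak at 9.88 h. Among the inhibitor genes, Per1 peaked at 10.5 h (3.51-fold), Per3 at 10.8 h (7.29-fold) and Per2 at 13.1 h (9.71-fold), and Cry1 had the latest peak of the 16, at 17.8 h (2.64-fold). Bhlhe41 and Bhlhe40, whose products compete for E-boxes, swung 3.74-fold with a peak at 9.37 h and 2.46-fold. The repressor gene Ciart swung 7.43-fold, Tef and Hlf, relatives of Dbp, 4.19-fold and 2.57-fold, the cell cycle kinase gene Wee1 2.17-fold and the deubiquitinase gene Usp2 1.87-fold. Nampt, a gene of NAD synthesis, had a fold of 1.31 and was not called (limma, adjusted p = 0.216). The smallest fold among the 15 called targets was that of Cry2, at 1.68, near the 1.61 of Clock, and the difference between them was not tested.

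**Figure D4:**
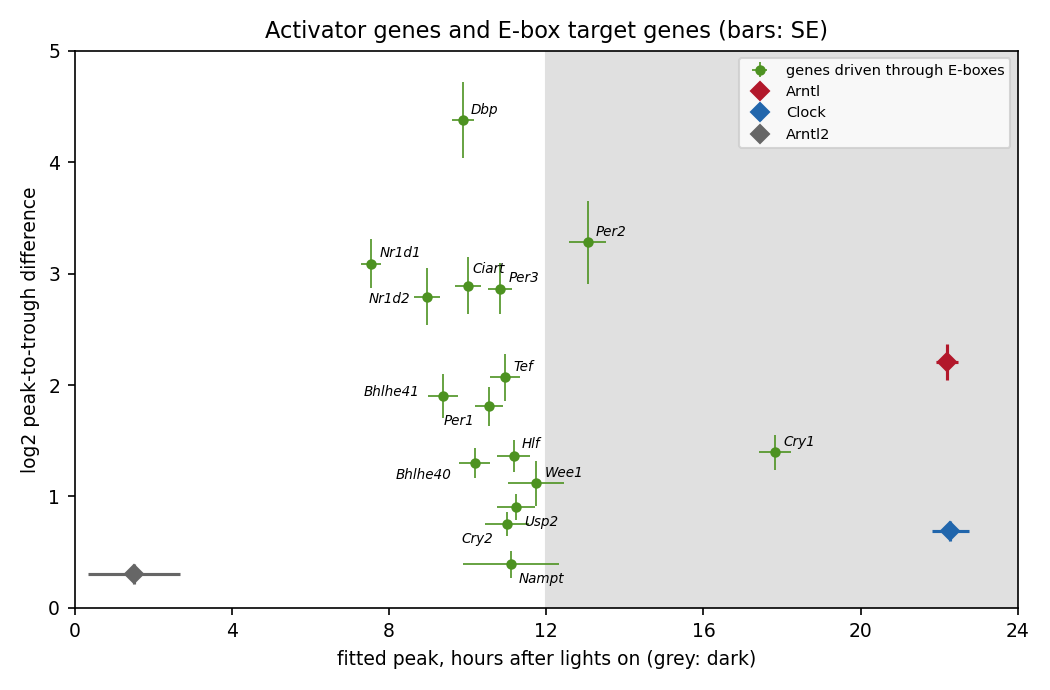
Fitted log2 peak-to-trough difference (y axis) against fitted peak in hours after lights on (x axis, grey for the dark) for Arntl, Clock, Arntl2 and 16 genes driven through E-boxes, with bars for the SE of both. Arntl and Clock stand together late in the dark at 22.2 and 22.3 h at very different heights, and the targets stand between 7.54 and 17.8 h.

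The plot of peak time and swing also shows Arntl2 near 0 on the height axis. Apart from Nr1d1 and Nr1d2, the other genes of the loop tested below had smaller folds than Arntl and Clock. Of the receptors acting on the Arntl promoter, Nr1d1 and Nr1d2 were called and Rora, an activator, was not (1.13-fold; limma, adjusted p = 0.402). None of 4 co-repressors and co-activators of these receptors was called by limma. At an unadjusted p under 0.05 (limma) stood 2 of the 4, and 2770 of the 14953 genes tested. The coactivator gene Ppargc1a had a fold of 1.39 (limma, adjusted p = 0.137). Among 13 tested genes of the bHLH-PAS family, to which all 3 proteins belong, 1 was called, a share to be read against the 2.13% of all genes. It was Hif3a, at 1.51-fold with a peak at 13.02 h (limma, adjusted p = 0.0424), and the median fold was 1.11. Npas2, which encodes a relative of CLOCK, was not analysed here. Among 29 genes for modifiers and coregulators of the BMAL1 and CLOCK proteins, 1 was called, Cipc, whose product inhibits CLOCK, at 1.36-fold with a peak at 10.1 h (limma, adjusted p = 0.0109). The median fold of the 29 was 1.08, and 1 of 29 lies near the 2.13% of all genes.

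Keratinocyte and fibroblast markers were all measured, with mean intensities from 2668 upwards for 10 keratinocyte genes and from 1743 upwards for 10 dermal fibroblast genes, and none was at 0. The summed intensity of 9 adipocyte markers was 25060 to 29930 in the ZT22 and ZT2 arrays, where Arntl and Clock were high, and 29240 to 33949 in the ZT10 and ZT14 arrays, and 2 of the 9, Cidec and Plin4, were called for a 24 h rhythm, where 2.13% of all genes were (limma, adjusted p = 0.00486 and 0.0169). The keratinocyte marker Ivl was called too, 1 of 10, at 1.60-fold with a peak at 21.5 h, close to those of Arntl and Clock (limma, adjusted p = 0.00499), as was the melanocyte marker Mlana, 1 of 8 tested, at 1.70-fold with a peak at 13.5 h (limma, adjusted p = 0.0371). No adipocyte marker was at 0, with the lowest averaging 828. The part of these markers in the rhythms of Arntl and Clock was not tested. The sum of 7 hair shaft markers was 27057 in the second ZT22 array and 2290 to 3574 in the other 12. That array also had the lowest sums of skeletal muscle (61380), endothelium (9955) and liver markers (15068), and the highest sum of melanocyte markers (5739). Without that array the peak-to-trough difference was 2.36 in log2 for Arntl (limma, adjusted p = 3.31e-05), 0.72 for Clock (0.00537) and 0.33 for Arntl2 (0.113). The hour 2 array also stood apart, with the lowest sums of fibroblast markers (61657, against 77600 or more in the other 12), of adipocyte markers and of macrophage and dendritic cell markers (21933, against 28339 or more), and it held the highest Arntl2 value. Without it the difference was 2.19 for Arntl (limma, adjusted p = 0.000159), 0.70 for Clock (0.00382) and 0.24 for Arntl2 (0.239). The sum of 9 liver markers varied between arrays from 15068 to 90067, and its part was not tested.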

How the data were processed

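Total RNA of whole back skin was read on Affymetrix whole-transcript arrays. The authors deposited linear probe set intensities, and the submitters' processing notes name PLIER 2.0 beside Affymetrix Expression Console 1.1.1. How arrays were scaled to each other, and with which annotation and build, is not given in the sources used here. Array medians ranged from 353.8 to 392.8, and no pair of arrays was identical.

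Of 35557 probe sets, 21789 had 1 gene, and for 999 genes with several of these the brightest by mean was kept, leaving 19938 genes. Intensities were taken as log2(intensity + 16), the dimmest 25% of genes were left out, and 14953 were tested with limma 3.58.1 in R 4.3.3 (lmFit and eBayes). Adjusted p-values (Benjamini-Hochberg) are over all 14953, with a threshold of 0.05. A rhythm was tested with the 24 h cosine and sine terms together. Scripts were tested on simulated data. Genes named for likeness were the 5 with the highest and the 5 with the lowest Pearson r for each gene, and from each pathway list the called genes and up to 4 others with the smallest p. The genes and lists were chosen with earlier results of these data known.

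Arrays of 1 time of day from different days served as replicates. The number of arrays limits the precision. Alternatives were the offset (1 and 64), the filter on dim genes (none, or 50% left out), median and quantile scaling, the mean of all probe sets of a gene, time of day as 6 groups, the day as a replicate block and leaving out each array.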

Additional observations from a re-analysis of the deposited data

How the results depend on the processing

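The 24 h rhythm of Arntl kept its direction and call under all 22 alternatives (log2 2.08 to 2.36), and that of Clock under 21 of 22 (0.64 to 0.73), the exception being time of day as 6 groups (0.716; limma, adjusted p = 0.0662). Arntl2 remained uncalled in all 22. Replicate numbers follow the day. First-day minus second-day log2 differences of all genes tested were correlated between times of day, over 15 pairs of times. The mean r was -0.02, with a range from -0.66 to 0.52 and 6 pairs over 0.1. On this mean, arrays with the same number were not treated as paired, although r differed in sign between pairs of times. With the day as a replicate block, the difference was 2.18 for Arntl (limma, adjusted p = 0.000707), 0.69 for Clock (0.0121) and 0.35 for Arntl2 (0.0927). The count of rhythmic genes, 318, was 211 with the replicate block, 44 with 6 groups and 126 to 414 when 1 array was left out; it was 126 or 128 without 1 of the ZT14 arrays, 132 without that of hour 10, and 179 to 203 without that of hour 6, 26, 30, 34 or 50. The second-day minus first-day difference changed sign for Clock with quantile scaling (0.00105). Leaving out 1 array turned the sign of small uncalled differences, whose ranges were -0.0379 to 0.0553 for Clock and -0.133 to 0.00547 for Arntl between days, -0.00661 to 0.215 for Arntl2 and -0.0426 to 0.235 for Clock at ZT22 against ZT18, and -0.0368 to 0.185 for Arntl2 and -0.340 to 0.00115 for Arntl at ZT2 against ZT22. Causes were not tested.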
